A study of Mus musculus with 16 samples.

Results

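The genes described are 30 named members of cholesterol and fatty acid synthesis, chosen by symbol with earlier results of these data known. The table of 23235 rows held 29 of them, all of which passed the filter of at least 1 FPKM in at least 2 libraries. Scd2 had no row of its name. The samples were 16 libraries of mouse skin at embryonic day 14.5, separated by fluorescence-activated cell sorting into 8 fractions with 2 libraries each. The labels call the fractions Pc, Epi, DCSch, DC, Mc, Sch, Neg and Fb without spelling them out. From general knowledge of the study they are read as placode (the epithelial bud of the hair follicle), epidermis between follicles, a joint fraction of dermal condensate and Schwann cells, dermal condensate (the cluster of dermal cells beneath a placode), melanocytes, Schwann cells of the nerves, cells left negative by the sort, and dermal fibroblasts. Every fraction came from the same tissue and age, and the labels name no strain, genotype or treatment. The sort markers, and whether the replicates came from separate litters, are not given here, so p-values measure the spread between these libraries, which may be technical.

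Cholesterol is built from acetyl-CoA through mevalonate, the isoprenoids and squalene, and a chain of sterol enzymes then turns lanosterol into cholesterol. Fatty acid synthesis starts from the same acetyl-CoA, which Acly releases from citrate, and the products are lengthened by elongases and given double bonds by desaturases. Both programs are driven by the transcription factors SREBP2 (gene Srebf2) and SREBP1 (Srebf1), which Insig1 holds back in the endoplasmic reticulum while sterol is plentiful. Growing cells need both lipids for membranes. The epidermis also uses them for its barrier, and the hedgehog ligand carries a cholesterol group.

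Markers of each named cell type summed highest in the fraction of that name, except that keratinocyte markers were high in Pc and Epi alike. Summed FPKM of 6 keratinocyte markers was 4326 and 3068 in Pc and 3564 and 2769 in Epi. Dermal condensate markers summed to 3074 and 1542 in DC, against 55.8 and 41.2 in Fb, and fibroblast markers to 1622 and 1383 in DC, against 6029.8 and 5123 in Fb. The melanocyte sum was 6600.2 and 5058 in Mc and the Schwann cell sum 1667 and 1884 in Sch. Neg carried 32118 and 35046 FPKM of 4 erythroid genes. Total FPKM ran from 439201 to 606437 per library, and 11273 to 12137 rows reached 1 FPKM. In sorted bulk samples, fewer cells of a type and less RNA per cell cannot be told apart.

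The sterol enzymes were at their highest level in Fb and their lowest in DC. The 17 enzymes summed to 359 ± 5.29 FPKM in Pc, 431 ± 40.001 in Epi, 233 ± 22.3 in DCSch, 209.7 ± 18.3 in DC, 338 ± 19.9 in Mc, 248 ± 6.49 in Sch, 327 ± 9.04 in Neg and 568 ± 29.5 in Fb (mean ± SD, n = 2 each). In rising order the fractions ran DC, DCSch, Sch, Neg, Mc, Pc, Epi and Fb. Libraries of DC and DCSch overlapped, as did those of DCSch and Sch and of Neg and Mc, and the other neighbours did not. The 8 fatty acid enzymes with a row ranged less, from 114 ± 12.5 FPKM in Pc to 214 ± 7.44 in Fb, with DC second highest at 195 ± 15.1. Elovl6 alone made 71.9 ± 27.1 FPKM of the DC sum, against 23.4 ± 6.05 in Fb. Of the 8 enzymes 7 had a log2 difference between DC and Fb below 0. By mean FPKM, 18 of the 29 members were highest in Fb and 13 lowest in DC, and none was lowest in Fb. In a limma F test over the 8 fractions, adjusted over all rows, 21 of the 29 members differed, against 55.8% of all rows tested.

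**Figure D1:**
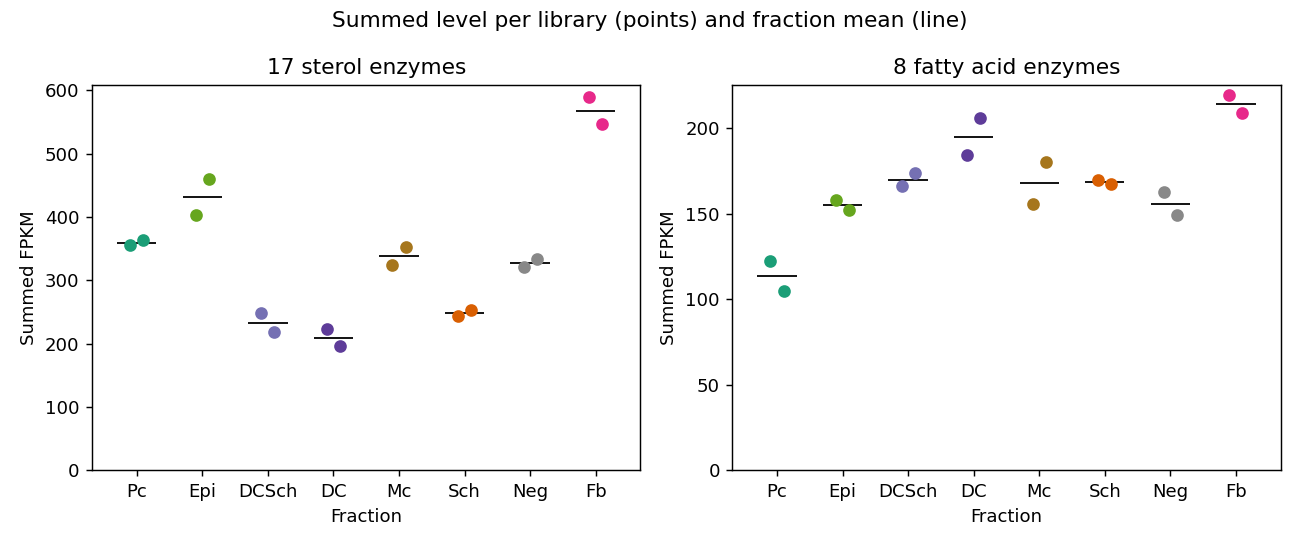
Summed FPKM of the 17 sterol enzymes (left) and of 8 fatty acid enzymes (right) in each fraction, with 1 point per library and a line at the mean of the 2 libraries. The sterol sums of DC lie at 223 and 197 FPKM, below both Fb libraries at 589 and 547, while the fatty acid sums of DC, 184 and 206, come next below those of Fb. Elovl6 alone made 52.7 and 91.1 FPKM of these fatty acid sums of DC.

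**Figure D2:**
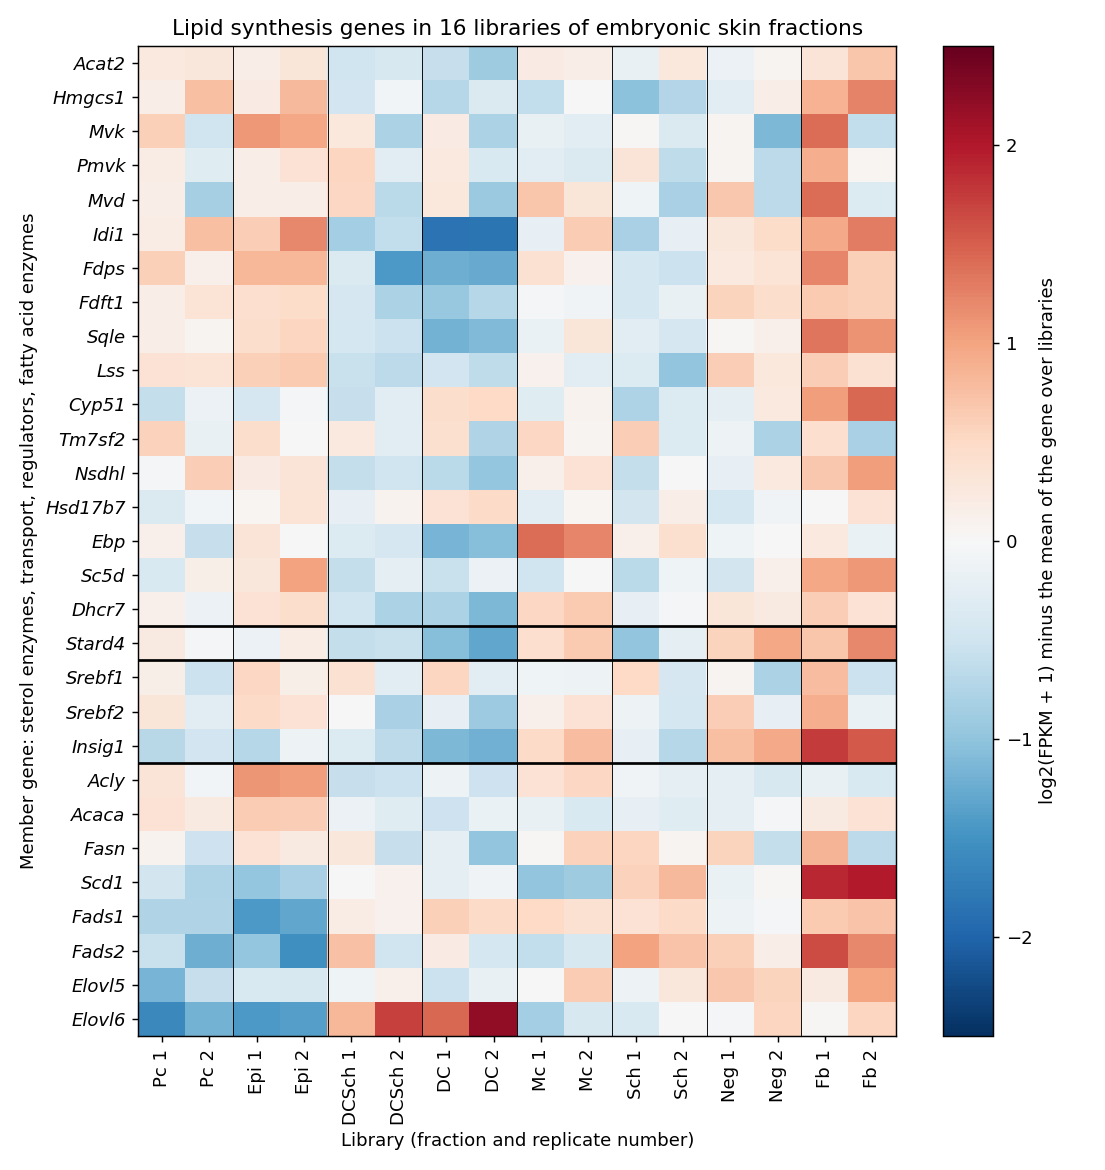
Level of each of the 29 members in each of the 16 libraries as log2(FPKM + 1) minus the mean of the gene over the libraries, red above and blue below that mean, with the members grouped into sterol enzymes, sterol transport, regulators and fatty acid enzymes. The 2 DC columns are blue for most sterol genes, and the row of Elovl6 is red in DC and DCSch.

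Dermal condensates were compared with the fibroblasts around them, and 11 of the 17 sterol enzymes were lower in the condensate. Of the 29 members 15 were lower in DC and 1 was higher (limma, adjusted p under 0.05 with a log2 difference of at least 1). Of all 14171 rows tested, 15.3% were called, 9.2% as lower and 6.13% as higher. Among the lower members were 11 of 17 sterol enzymes, 2 of 8 fatty acid enzymes, the regulator Insig1 and the sterol carrier Stard4. The higher one was Elovl6. The median log2 difference of the 29 members was -1.04, beside -0.003 over all rows, and 25 of the 29 differences lay below 0.

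Of the 7 steps that lead to the isoprenoids 4 were lower in DC. Acat2, the thiolase that joins acetyl groups, measured 39.7 and 41.003 FPKM in Pc, 37.3 and 41.1 in Epi, 23.2 and 24.9 in DCSch, 21.98 and 17.6 in DC, 38.4 and 37.8 in Mc, 29.1 and 40.3 in Sch, 30.01 and 34.997 in Neg and 42.1 and 54.9 in Fb. Hmgcs1, which makes HMG-CoA, measured 46.9 and 70.8 FPKM in Pc, 48.2 and 73.7 in Epi, 29.6 and 39.3 in DCSch, 24.9 and 32.1 in DC, 26.6 and 41.9 in Mc, 20.001 and 24.7 in Sch, 34.3 and 46.9 in Neg and 76.8 and 98.9 in Fb. Both DC libraries were below both Fb libraries for either gene, and both Sch libraries were lower still than those of DC for Hmgcs1. The log2 differences between DC and Fb were -1.25 (SE 0.20, limma adjusted p = 0.000872) for Acat2 and -1.59 (SE 0.31, limma adjusted p = 0.00293) for Hmgcs1. Idi1, the isopentenyl diphosphate isomerase, had the largest difference of all members from Fb. It measured 15.2 and 23.1 FPKM in Pc, 20.8 and 31.9 in Epi, 6.898 and 8.22 in DCSch, 2.97 and 2.98 in DC, 11.3 and 21.02 in Mc, 7.13 and 11.3 in Sch, 16.2 and 18.6 in Neg and 26.5 and 33.3 in Fb. DC was the lowest fraction, with DCSch next, and the log2 difference between DC and Fb was -2.95 (SE 0.33, limma adjusted p = 4.72e-05). Fdps, which makes farnesyl diphosphate for sterols and protein prenylation alike, measured 53.7 and 38.6 FPKM in Pc, 63.3 and 63.1 in Epi, 27.3 and 12.4 in DCSch, 14.6 and 14.1 in DC, 46.4 and 37.95 in Mc, 25.7 and 23.9 in Sch, 41.9 and 45.3 in Neg and 84.1 and 54.03 in Fb. Its log2 difference was -2.16 (SE 0.32, limma adjusted p = 0.000401), without overlap of the libraries. The 3 enzymes between HMG-CoA and Idi1 that follow mevalonate were not called. Mvk, the mevalonate kinase, averaged 5.97 ± 3.28 FPKM in DC and 12.2 ± 11.3 in Fb. Pmvk, the phosphomevalonate kinase, averaged 17.98 ± 5.72 FPKM in DC and 27.3 ± 11.7 in Fb, and the decarboxylase Mvd averaged 6.91 ± 4.41 FPKM in DC and 14.7 ± 12.02 in Fb. For these 3 genes replicate 1 of Fb lay well above replicate 2, and the DC and Fb libraries overlapped.

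Squalene enzymes, the entry to the sterol branch, were lower as well. Fdft1, the squalene synthase, measured 21.4 and 24.3 FPKM in Pc, 25.9 and 26.7 in Epi, 14.1 and 10.6 in DCSch, 9.42 and 11.2 in DC, 18.7 and 17.8 in Mc, 13.7 and 16.6 in Sch, 28.4 and 25.98 in Neg and 30.7 and 29.1 in Fb. Its locus in the file also spans the neighbouring gene Ctsb, with which it shares exon bases. Sqle, the squalene epoxidase and a rate-controlling enzyme, measured 38.2 and 35.6 FPKM in Pc, 46.3 and 49.3 in Epi, 24.7 and 22.8 in DCSch, 14.3 and 15.1 in DC, 30.05 and 41.8 in Mc, 27.5 and 24.9 in Sch, 34.6 and 36.9 in Neg and 86.8 and 74.4 in Fb. Both were lowest in DC and highest in Fb, with log2 differences of -1.45 (SE 0.19, limma adjusted p = 0.000155) and -2.37 (SE 0.18, limma adjusted p = 3.63e-06). Lss, which closes the rings to lanosterol, measured 10.8 and 10.7 FPKM in Pc, 12.99 and 13.5 in Epi, 5.26 and 4.87 in DCSch, 5.66 and 4.97 in DC, 8.88 and 6.67 in Mc, 6.302 and 3.63 in Sch, 13.1 and 10.05 in Neg and 13.1 and 10.9 in Fb. The DC libraries lay among the low values of Sch and DCSch, and the log2 difference from Fb was -1.04 (SE 0.25, limma adjusted p = 0.00929). The call of Lss was lost without Fb replicate 1 and without DC replicate 2.

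Enzymes that turn lanosterol into cholesterol were mixed. Nsdhl, which helps remove methyl groups, measured 19.5 and 31.2 FPKM in Pc, 23.1 and 25.2 in Epi, 12.99 and 13.9 in DCSch, 12.2 and 9.75 in DC, 21.9 and 25.9 in Mc, 12.96 and 20.3 in Sch, 17.1 and 23.9 in Neg and 32.3 and 42.4 in Fb. Ebp, a sterol isomerase, measured 6.19 and 3.38 FPKM in Pc, 7.22 and 5.47 in Epi, 4.196 and 3.902 in DCSch, 1.95 and 2.11 in DC, 16.3 and 14.3 in Mc, 6.17 and 7.63 in Sch, 5.08 and 5.56 in Neg and 6.74 and 4.83 in Fb. It was lowest in DC and highest in Mc. Sc5d, a sterol desaturase, measured 5.46 and 8.25 FPKM in Pc, 9.19 and 15.9 in Epi, 4.53 and 6.15 in DCSch, 4.71 and 6.58 in DC, 4.96 and 7.32 in Mc, 4.24 and 6.8004 in Sch, 5.102 and 8.17 in Neg and 15.5 and 16.8 in Fb. Dhcr7, the reductase of the last step, measured 13.8 and 11.3 FPKM in Pc, 16.5 and 17.6 in Epi, 8.71 and 6.91 in DCSch, 6.92 and 5.29 in DC, 18.5 and 20.6 in Mc, 10.8 and 12.1 in Sch, 15.8 and 15.03 in Neg and 19.9 and 16.7 in Fb. The log2 differences between DC and Fb were -1.67 (SE 0.28, limma adjusted p = 0.000986) for Nsdhl, -1.15 (SE 0.26, limma adjusted p = 0.00755) for Ebp, -1.38 (SE 0.34, limma adjusted p = 0.0121) for Sc5d and -1.44 (SE 0.20, limma adjusted p = 0.000258) for Dhcr7. The call was lost without Fb replicate 1 for Ebp, and without Fb replicate 2 or DC replicate 1 for Sc5d. The other 3 enzymes of this stretch were not called. Cyp51, the lanosterol demethylase, averaged 30.4 ± 0.735 FPKM in DC and 53.1 ± 10.4 in Fb, a log2 difference of -0.77 (SE 0.27, limma adjusted p = 0.0616). With the replicate block its adjusted p was 0.000257 (limma), at a difference still below the minimum size. Hsd17b7, a ketoreductase, averaged 13.95 ± 0.862 FPKM in DC, its highest fraction, and 11.7 ± 2.19 in Fb. The sterol reductase Tm7sf2 averaged 13.7 ± 7.95 FPKM in DC and 13.7 ± 8.34 in Fb. Cyp51 shares exon bases with Akap9, Fdps with Gm43738 and Tm7sf2 with Vps51, and the strand setting of the counting is not given here.

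**Figure D3:**
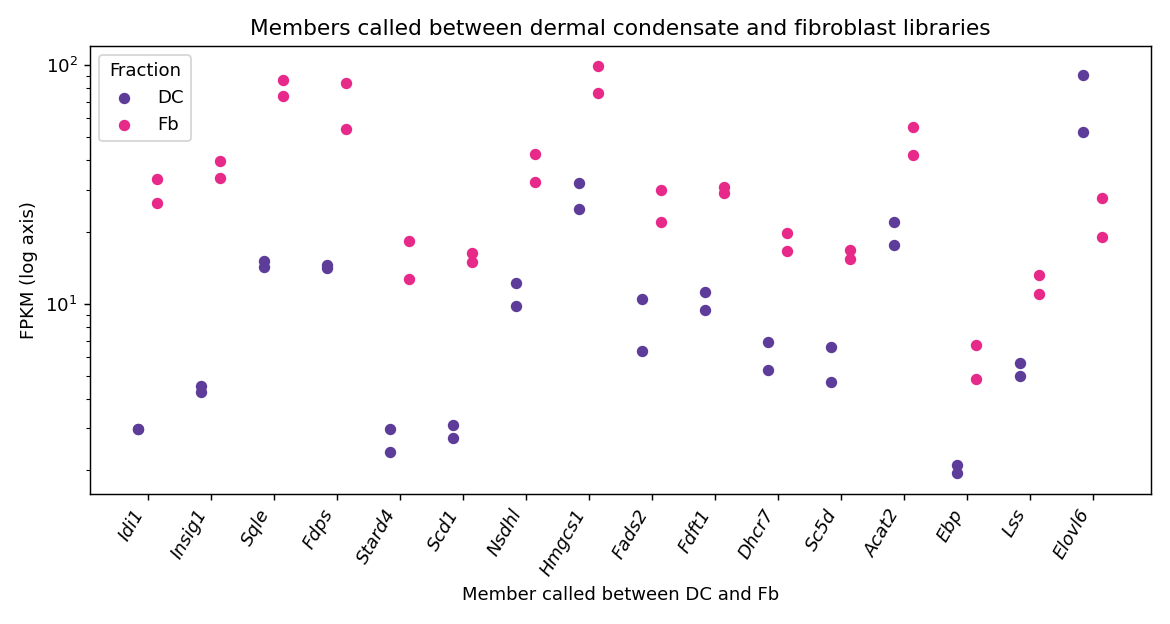
FPKM of the 16 members called between DC and Fb in the 2 DC and 2 Fb libraries, on a log axis, ordered by log2 difference from the most negative to the most positive. The DC points lie below the Fb points for the first 15 genes and above them for Elovl6.

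Insig1 and Stard4, both genes that SREBP2 is known to activate, were lower in DC too. Insig1 measured 6.45 and 7.68 FPKM in Pc, 6.36 and 9.99 in Epi, 8.501 and 6.61 in DCSch, 4.53 and 4.25 in DC, 15.7 and 19.4 in Mc, 9.48 and 6.34 in Sch, 19.2 and 22.2 in Neg and 39.5 and 33.7 in Fb. The Fb libraries stood above every other library, and DC was lowest. Stard4, which carries cholesterol between membranes, measured 8.82 and 7.16 FPKM in Pc, 6.63 and 8.47 in Epi, 4.56 and 4.69 in DCSch, 2.99 and 2.397 in DC, 10.3 and 12.1 in Mc, 3.24 and 6.203 in Sch, 11.4 and 15.4 in Neg and 12.6 and 18.3 in Fb. The log2 differences between DC and Fb were -2.80 (SE 0.25, limma adjusted p = 1.13e-05) for Insig1 and -2.14 (SE 0.29, limma adjusted p = 0.000199) for Stard4. The transcription factor genes themselves were not called. Srebf2 measured 25.8 and 17.3 FPKM in Pc, 29.6 and 26.99 in Epi, 20.9 and 11.5 in DCSch, 17.99 and 10.6 in DC, 22.9 and 27.03 in Mc, 19.01 and 15.1 in Sch, 32.5 and 17.9 in Neg and 40.2 and 18.6 in Fb. Srebf1 measured 7.13 and 4.08 FPKM in Pc, 9.46 and 7.09 in Epi, 8.54 and 5.08 in DCSch, 9.69 and 4.998 in DC, 5.81 and 5.73 in Mc, 9.37 and 4.49 in Sch, 6.68 and 3.26 in Neg and 11.6 and 4.07 in Fb. For Srebf2 the DC and Fb libraries did not overlap, with a log2 difference of -0.94 (SE 0.41, limma adjusted p = 0.149), and the adjusted p with the replicate block was 0.0117 (limma), at a difference still below the minimum size. For Srebf1 they overlapped, with 0.002 (SE 0.50, limma adjusted p = 1). The locus of Srebf1 in the file spans its neighbour Rai1 as well, with which it shares exon bases.

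In the fatty acid branch Scd1 and Fads2 were lower in DC and Elovl6 was higher. Scd1, the desaturase that makes oleate, measured 2.18 and 1.54 FPKM in Pc, 1.22 and 1.48 in Epi, 3.33 and 3.66 in DCSch, 2.73 and 3.11 in DC, 1.19 and 1.36 in Mc, 5.45 and 6.59 in Sch, 2.87 and 3.42 in Neg and 15.03 and 16.3 in Fb. Both Fb libraries stood above all others, with Sch next, and the log2 difference between DC and Fb was -2.09 (SE 0.20, limma adjusted p = 1.72e-05). Fads2, the first desaturase of polyunsaturated fatty acids, measured 5.74 and 3.26 FPKM in Pc, 4.104 and 2.43 in Epi, 15.6 and 6.08 in DCSch, 10.5 and 6.34 in DC, 5.501 and 6.57 in Mc, 18.9 and 15.3 in Sch, 14.1 and 10.1 in Neg and 29.9 and 22.005 in Fb. Its log2 difference was -1.54 (SE 0.41, limma adjusted p = 0.0179), and the call was lost without Fb replicate 1 or without DC replicate 2. Elovl6, which lengthens palmitate to stearate, measured 5.45 and 7.67 FPKM in Pc, 6.31 and 6.65 in Epi, 34.2 and 63.5 in DCSch, 52.7 and 91.1 in DC, 10.01 and 13.97 in Mc, 14.1 and 18.6 in Sch, 18.05 and 27.8 in Neg and 19.1 and 27.7 in Fb. Every DC and DCSch library was above every library of the other 6 fractions. The log2 difference between DC and Fb was 1.55 (SE 0.36, limma adjusted p = 0.0088), and it lost the call without Fb replicate 1 or without DC replicate 2. With the replicate block the adjusted p of Elovl6 was 1.4e-05 (limma). Acly, Acaca, Fasn, Fads1 and Elovl5 were not called. Fads1, which acts after Fads2, averaged 47.6 ± 3.08 FPKM in DC and 52.4 ± 1.59 in Fb, and Acly averaged 26.4 ± 5.197 FPKM in DC and 26.9 ± 2.62 in Fb. Acaca, the acetyl-CoA carboxylase, averaged 11.8 ± 2.12 FPKM in DC and 18.8 ± 1.29 in Fb, with a log2 difference of -0.64 (SE 0.19, limma adjusted p = 0.0295) that is under the minimum size. Elovl5, an elongase of polyunsaturated fatty acids, averaged 11.8 ± 2.11 FPKM in DC and 24.7 ± 9.39 in Fb, also under it at -0.97 (SE 0.31, limma adjusted p = 0.0459). The synthase Fasn averaged 14.2 ± 5.33 FPKM in DC and 26.4 ± 18.4 in Fb, with replicate 1 above replicate 2 in both.

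**Figure D4:**
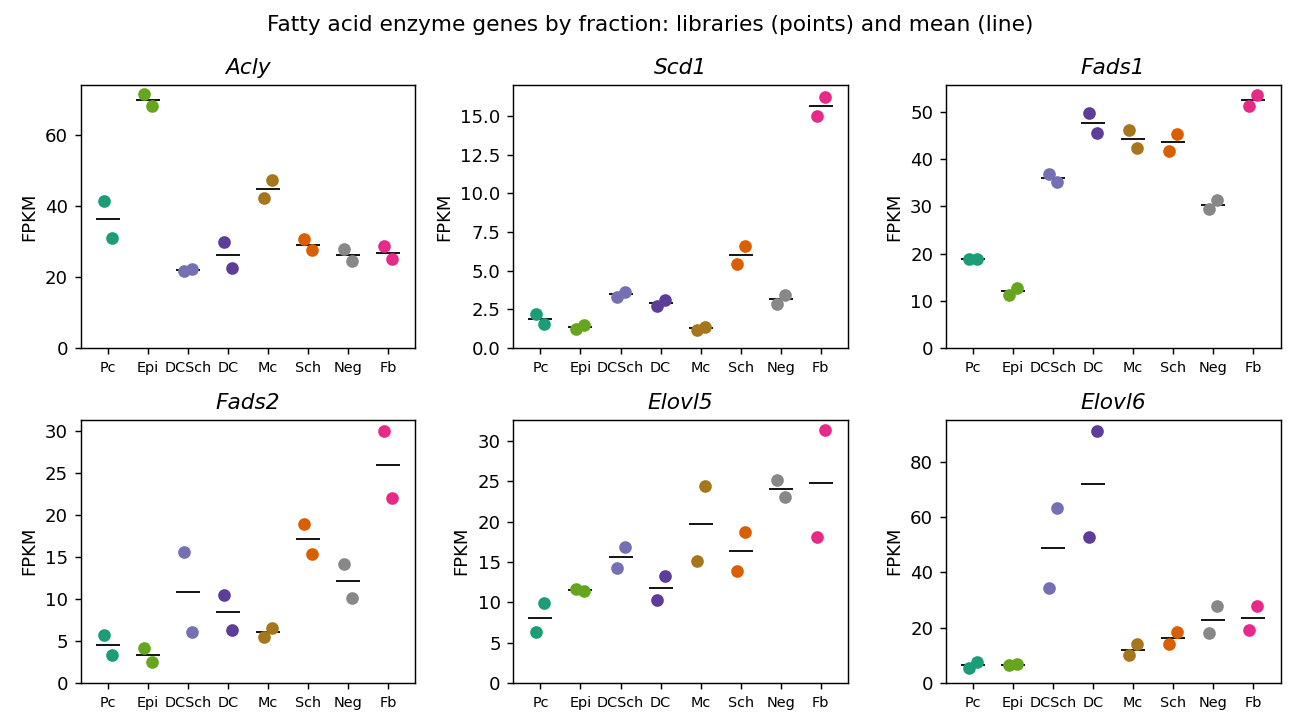
FPKM of 6 fatty acid enzyme genes in each fraction, with 1 point per library and a line at the mean of the 2 libraries. Acly peaks in Epi, Scd1 and Fads2 in Fb, and Elovl6 in DC and DCSch.

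The difference between DC and Fb held in each replicate number. All 16 called members had the same sign in replicate 1 and in replicate 2, and the median of the 29 members was -1.14 within replicate 1 and -0.999 within replicate 2. The DC and Fb libraries did not overlap for 22 members, of which 20 were lower in DC, while 25.2% of all rows were lower without overlap. With a replicate term 15 members were lower and 1 higher, and 16.8% of all rows were called. Fitted on the 4 DC and Fb libraries alone, 9 of the 15 kept the call and Elovl6 did not. Other genes moved beside these members. All 8 cell division markers were lower in DC, where they summed to 73.2 and 108 FPKM, against 756 and 944 in Fb. Of 4 tested adipocyte markers 2 were lower (Pparg and Lpl). The list of 6 summed to 4.36 and 3.12 FPKM in DC and 28.96 and 26.4 in Fb, while Adipoq and Plin1, which define mature adipocytes, were at or near 0 in both. Schwann cell markers were all 6 higher in DC, at 37.4 and 88.995 FPKM in sum, against 6.15 and 12.2 in Fb, and 4 of 6 stress genes were lower, at 109.6 and 58.1 in DC and 289 and 141 in Fb. Their part in the result was not tested.

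Neighbouring genes of the pathway, from lists of named genes, changed in both directions between DC and Fb. Of 7 tested further sterol genes 4 were lower and 1 higher. The methyl sterol oxidase, listed as Sc4mol, measured 3.01 and 3.701 FPKM in DC, against 25.7 and 30.2 in Fb, and the sterol reductase and lamin receptor Lbr 2.33 and 4.45 FPKM in DC, against 17.2 and 19.7 in Fb. Ch25h and Cyp7b1, which make and remove oxysterols, measured 0.1304 and 0.343 FPKM in DC, against 13.8 and 11.6 in Fb for Ch25h and 1.702 and 3.703 FPKM in DC, against 10.2 and 16.7 in Fb for Cyp7b1. The 4 log2 differences were -2.73 (SE 0.29, limma adjusted p = 3.34e-05), -2.19 (SE 0.32, limma adjusted p = 0.000393), -3.47 (SE 0.30, limma adjusted p = 8.17e-06) and -1.98 (SE 0.39, limma adjusted p = 0.00303). Cyp27a1, another oxysterol enzyme, was the higher one (log2 difference 1.002, SE 0.26, limma adjusted p = 0.0148). Of 8 tested genes of the SREBP and LXR machinery only Abca1 was called. Abca1, the cholesterol exporter and an LXR target, measured 22.96 and 32.6 FPKM in DC, against 3.55 and 5.31 in Fb, a log2 difference of 2.40 (SE 0.32, limma adjusted p = 0.000193). Scap, which escorts SREBP out of the endoplasmic reticulum, was not.

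Of 6 genes of lipid uptake and lysosomal release 2 were higher in DC and 1 was lower. Vldlr, a lipoprotein receptor, measured 15.9 and 21.1 FPKM in DC, against 3.68 and 8.25 in Fb, and Npc1, which exports cholesterol from the lysosome, 22.7 and 27.1 FPKM in DC, against 9.802 and 10.1 in Fb. Lipa, the lysosomal acid lipase, was lower at 21.5 and 26.3 FPKM in DC, against 48.97 and 74.8 in Fb. The log2 differences were 1.55 (SE 0.35, limma adjusted p = 0.00736) for Vldlr, 1.24 (SE 0.20, limma adjusted p = 0.000751) for Npc1 and -1.31 (SE 0.27, limma adjusted p = 0.00407) for Lipa. Among 14 tested further fatty acid genes the acyl-CoA synthetases Acsl3 (log2 difference -1.89, SE 0.26, limma adjusted p = 0.000227) and Acsl5 (log2 difference -1.84, SE 0.18, limma adjusted p = 1.96e-05) were lower and none was higher. Of 8 genes of storage and glycerolipids Lpin1 (log2 difference 1.28, SE 0.20, limma adjusted p = 0.000671) and the Schwann cell marker Fabp7 (log2 difference 2.54, SE 0.56, limma adjusted p = 0.00649) were higher. Of 12 genes of fatty acid oxidation Decr1 was lower (log2 difference -1.37, SE 0.40, limma adjusted p = 0.0307) and the others were not called.

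The promoters of 3 members lower in DC than in Fb, and of Elovl6, which was higher, are printed to show the elements near their starts. They are RefSeq windows on GRCm38.p6, the build of the mm10 coordinates, from 250 bases before to 50 bases after the gene's start, all 4 on the plus strand, 5′ to 3′. The windows are chr13:119690101-119690400 for Hmgcs1, chr13:8885356-8885655 for Idi1, chr5:28071162-28071461 for Insig1 and chr3:129532136-129532435 for Elovl6. Capitals mark matches, on either strand, to TCACNCCAC (a form of the sterol regulatory element), CCAAT (bound by NF-Y), GGGCGG (the GC box bound by Sp1) and CACGTG (an E-box, which SREBP can also bind).
Hmgcs1: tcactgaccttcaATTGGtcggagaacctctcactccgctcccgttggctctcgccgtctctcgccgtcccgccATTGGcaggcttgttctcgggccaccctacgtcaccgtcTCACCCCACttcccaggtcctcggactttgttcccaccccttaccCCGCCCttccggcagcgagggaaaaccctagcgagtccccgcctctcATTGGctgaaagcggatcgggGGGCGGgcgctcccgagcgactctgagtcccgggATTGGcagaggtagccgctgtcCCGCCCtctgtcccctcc
Idi1: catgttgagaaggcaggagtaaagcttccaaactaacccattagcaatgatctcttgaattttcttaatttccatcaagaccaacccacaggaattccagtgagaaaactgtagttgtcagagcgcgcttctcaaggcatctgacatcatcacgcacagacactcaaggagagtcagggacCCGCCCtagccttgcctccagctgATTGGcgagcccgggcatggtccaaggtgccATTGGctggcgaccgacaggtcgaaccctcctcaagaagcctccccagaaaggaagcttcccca
Insig1: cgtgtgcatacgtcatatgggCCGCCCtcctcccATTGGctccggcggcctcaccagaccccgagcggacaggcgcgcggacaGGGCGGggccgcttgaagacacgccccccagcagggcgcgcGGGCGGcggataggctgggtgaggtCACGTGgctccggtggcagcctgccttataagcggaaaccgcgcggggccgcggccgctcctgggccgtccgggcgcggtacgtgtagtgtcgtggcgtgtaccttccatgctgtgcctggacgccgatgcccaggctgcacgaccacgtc
Elovl6: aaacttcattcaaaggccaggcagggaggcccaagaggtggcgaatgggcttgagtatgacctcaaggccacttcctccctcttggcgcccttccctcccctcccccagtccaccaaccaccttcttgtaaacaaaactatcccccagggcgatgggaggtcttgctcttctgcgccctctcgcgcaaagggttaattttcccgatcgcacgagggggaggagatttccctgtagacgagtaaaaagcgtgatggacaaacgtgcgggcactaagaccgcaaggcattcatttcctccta

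The Hmgcs1 window held 1 sterol regulatory element, 4 CCAAT boxes and 3 GC boxes. The window of Idi1 held 2 CCAAT boxes and 1 GC box, that of Insig1 held 1 CCAAT box, 3 GC boxes and 1 E-box, and that of Elovl6 held none of the 4 motifs. Windows were found for 23 of the 30 members, 28 in all since some genes have several starts. CCAAT was in 20 of the 28 windows (71.4%) and in 37.4% of all 32851 promoter windows. GGGCGG was in 20 of 28 as well, and in 35.7% of all windows. CACGTG was in 5 of 28 (17.9%) and in 7.15% of all. TCACNCCAC was in 1 of 28 (3.57%), that of Hmgcs1, and in 1.24% of all. A match is only a match of letters, and the window leaves out elements farther away. The 4 printed windows were picked and do not stand for the others. Other members, such as Sqle at -2.37, differed more between DC and Fb than Hmgcs1 at -1.59. Whether motifs go with the direction of the difference was not tested.

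Placodes and the epidermis between them, the epithelial pair, were compared for the same genes, and none of the 29 members was called. Of all rows 1.52% were called, 0.155% as higher and 1.37% as lower. At an unadjusted limma p under 0.05 there were 3, and 8.76% of all rows passed it. By the adjusted p alone, which 1.82% of all rows passed, the 1 member was Acly, which measured 41.5 and 31.1 FPKM in Pc, against 71.8 and 68.4 in Epi, a log2 difference of -0.94 (SE 0.20, limma adjusted p = 0.0306). The fit with a replicate term called 2.6% of all rows and no member, and 1 was without Epi replicate 1 or another of the libraries compared. By the adjusted p alone, the fit with a replicate term passed Acly (limma adjusted p = 0.00162), Sc5d (log2 difference -0.76, limma adjusted p = 0.0143) and Fads1 (log2 difference 0.61, limma adjusted p = 0.00421). The median log2 difference was -0.33, beside 0.003 over all rows, with 23 of 29 below 0.

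The Pc and Epi libraries did not overlap for 15 of the 29 members, of which 13 were lower in Pc, while 19% of all rows were lower without overlap. Sqle measured 38.2 and 35.6 FPKM in Pc, against 46.3 and 49.3 in Epi, without overlap. Insig1, which did overlap, measured 6.45 and 7.68 FPKM in Pc, against 6.36 and 9.99 in Epi, and so did Hmgcs1, at 46.9 and 70.8 FPKM in Pc, against 48.2 and 73.7 in Epi. The log2 differences were -0.37 (SE 0.18, limma adjusted p = 0.651) for Sqle, -0.16 (SE 0.25, limma adjusted p = 1) for Insig1 and -0.05 (SE 0.31, limma adjusted p = 1) for Hmgcs1. Among 14 further fatty acid genes Elovl4 (log2 difference -2.56, SE 0.30, limma adjusted p = 0.0013), an elongase of the very long chains of barrier lipids, and Acsl1 (log2 difference -2.07, SE 0.28, limma adjusted p = 0.0025) were lower in Pc. The storage gene Dgat2 (log2 difference -2.08, SE 0.39, limma adjusted p = 0.0208) was lower too, and no other gene of the pathway lists was called without the replicate term. With it Elovl1 (log2 difference -1.23, limma adjusted p = 0.000774), another elongase, and Ch25h (log2 difference -1.07, limma adjusted p = 0.0372) were lower in Pc as well. Markers of epidermal differentiation moved the same way, at 475 and 178 FPKM in sum in Pc, against 1982 and 1521 in Epi, with 4 of 6 called lower, and 4 of 6 melanocyte markers were lower in Pc as well; their part in the result was not tested.

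Whether the follicle fraction differed from its surroundings by the same amount in both layers was tested as the difference of the 2 differences. The log2 difference of Pc from Epi exceeded that of DC from Fb for 12 of the 29 members and was below it for none, where 14.1% of all rows were called, 8.19% in that direction and 5.89% in the other. The 12 were Acat2, Hmgcs1, Idi1, Fdps, Fdft1, Sqle, Nsdhl, Dhcr7, Insig1, Stard4, Scd1 and Fads2. All of them were members lower in DC than in Fb. Leaving out 1 library left 8 to 11, and with a replicate term Elovl6 was called in the opposite direction beside the 12. The fit with a replicate term called 20.2% of all rows. All 8 cell division markers were called in the same direction as the 12, and their part in the result was not tested. The largest was Insig1, with log2 differences of -0.16 between Pc and Epi and -2.80 between DC and Fb.

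**Figure D5:**
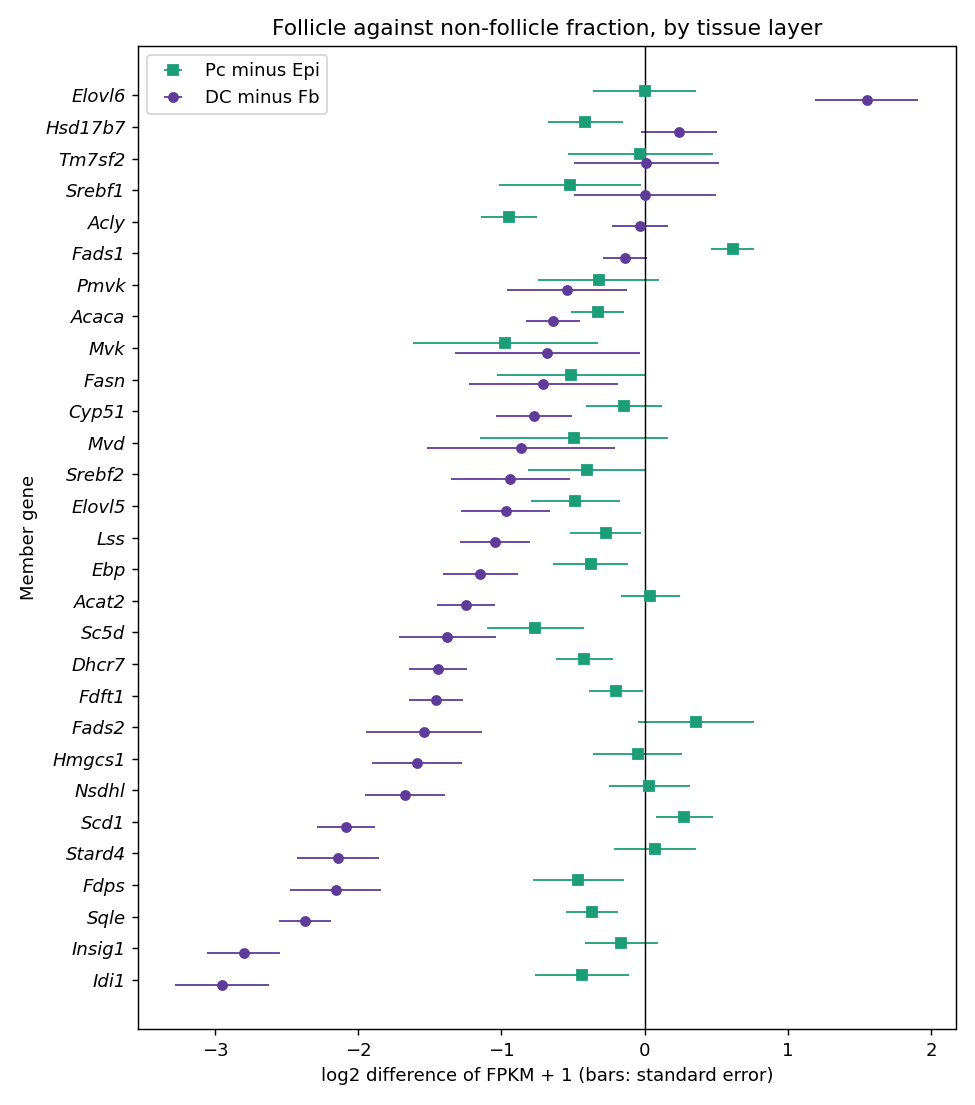
Log2 difference of FPKM + 1 for each member between Pc and Epi (squares) and between DC and Fb (circles), with bars of 1 standard error from limma, ordered by the DC difference. The squares lie between -0.97 for Mvk and 0.61 for Fads1, while the circles reach from -2.95 for Idi1 to 1.55 for Elovl6.

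Melanocytes and Schwann cells, which both descend from the neural crest, differed in 5 of the 29 members, 3 higher and 2 lower in Mc. Of all rows 11.8% were called, 4.53% higher and 7.31% lower. Ebp measured 16.3 and 14.3 FPKM in Mc, against 6.17 and 7.63 in Sch. The levels of Insig1 were 15.7 and 19.4 FPKM in Mc, against 9.48 and 6.34 in Sch. Those of Stard4 were 10.3 and 12.1 FPKM in Mc, against 3.24 and 6.203 in Sch. These 3 were higher in Mc, with log2 differences of 1.05 (SE 0.26, limma adjusted p = 0.0167), 1.07 (SE 0.25, limma adjusted p = 0.0123) and 1.14 (SE 0.29, limma adjusted p = 0.0174). The desaturase genes were lower. Scd1 measured 1.19 and 1.36 FPKM in Mc, against 5.45 and 6.59 in Sch, and Fads2 measured 5.501 and 6.57 FPKM in Mc, against 18.9 and 15.3 in Sch. Their log2 differences were -1.62 (SE 0.20, limma adjusted p = 0.000117) and -1.36 (SE 0.41, limma adjusted p = 0.0427). No library of either fraction overlapped the other for any of the 5. Over the 29 members the Mc and Sch libraries did not overlap for 18, of which 3 were lower in Mc. Of all rows 27.6% were lower without overlap. The share higher without overlap was not counted, so the number of members higher without overlap cannot be set against all rows. Dhcr7 passed by its adjusted p alone (log2 difference 0.72, SE 0.20, limma adjusted p = 0.0312). Of the 17 sterol enzymes 15 had a difference above 0, with a median of 0.45. A replicate term called the same 5 members, and 13.8% of all rows. By the adjusted p alone that fit also passed Hmgcs1, Mvd, Idi1, Fdps, Sqle, Lss, Cyp51, Dhcr7 and Acly. All of these were higher in Mc at differences under the minimum size. The share of all rows passing that fit was not counted, so the list has no background of its own. Without the replicate term 15% of all rows passed by the adjusted p alone. The median over the 29 was 0.26, beside -0.01 over all rows. Scd1 was called whichever library was left out, and each of the other 4 lost the call without at least 1 library, so that 1 to 3 remained. With libraries rescaled to the same total Ebp and Insig1 lost the call. Of 6 keratinocyte markers 1 was higher in Mc, where the list summed to 569 and 409 FPKM, against 182 and 29.6 in Sch, and with a replicate term all 6 were higher. Much of the Mc sum was Cdh1, at 224 and 236 FPKM in Mc, 11.3 and 2.29 in Sch and 252 and 241 in Epi. Krt5, by contrast, measured 142 and 76.1 FPKM in Mc, against 1355 and 1104 in Epi. Of 3 mast cell markers the 1 called was Kit, which is also a melanocyte marker, while Cpa3 measured 1.94 and 1.44 FPKM in Mc, against 3.35 and 1.06 in Sch. The part of the keratinocyte markers in the result was not tested.

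Among the other pathway genes Mc was lower than Sch in Abca1 (log2 difference -1.70, SE 0.32, limma adjusted p = 0.0028), the cholesterol-esterifying enzyme Soat1 (log2 difference -1.28, SE 0.33, limma adjusted p = 0.0187), Vldlr (log2 difference -2.39, SE 0.35, limma adjusted p = 0.000467), Lipa (log2 difference -1.69, SE 0.27, limma adjusted p = 0.000892), the malic enzyme gene Me1 (log2 difference -2.19, SE 0.37, limma adjusted p = 0.0013), which supplies NADPH, and Fads3 (log2 difference -1.16, SE 0.21, limma adjusted p = 0.00249). It was higher in Npc2 (log2 difference 1.32, SE 0.18, limma adjusted p = 0.000213), Cyp27a1, Acsl3, Acsl5, Fabp5 and Lpin1. By list, further sterol genes had 1 of 7 higher and 1 lower, SREBP and LXR machinery 0 of 8 higher and 1 lower, and uptake and lysosomal release 1 of 6 higher and 2 lower. Further fatty acid genes had 2 of 14 higher and 2 lower, storage genes 2 of 8 higher and 1 lower, and no gene of fatty acid oxidation was called.

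Schwann cells, too, had lower levels of many sterol enzymes than fibroblasts. Sch was lower than Fb in 11 of 29 members and higher in none, where 15.4% of all rows were called, 8.68% as lower and 6.72% as higher. They were Hmgcs1, Idi1, Fdps, Sqle, Lss, Cyp51, Nsdhl, Sc5d, Scd1, Insig1 and Stard4. The largest was Insig1, which measured 9.48 and 6.34 FPKM in Sch, against 39.5 and 33.7 in Fb, a log2 difference of -2.10 (SE 0.25, limma adjusted p = 7.4e-05). Between DC and Sch 4 members were called, as were 19.2% of all rows, 10.3% as lower and 8.97% as higher. Idi1 (log2 difference -1.33, SE 0.33, limma adjusted p = 0.0097) and Ebp (log2 difference -1.38, SE 0.26, limma adjusted p = 0.00176) were lower in DC, and Elovl6 (log2 difference 2.03, SE 0.36, limma adjusted p = 0.00112) and Cyp51 (log2 difference 1.02, SE 0.27, limma adjusted p = 0.0134) were higher. Cyp51 measured 13.9 and 19.4 FPKM in Pc, 15.96 and 20.9 in Epi, 14.1 and 17.5 in DCSch, 29.9 and 30.9 in DC, 17.4 and 23.05 in Mc, 12.3 and 16.998 in Sch, 18.1 and 25.7 in Neg and 45.8 and 60.5 in Fb. Both DC libraries were above both Sch libraries, and its call was lost without either DC library or Sch replicate 1. All 8 cell division markers were lower in DC, where they summed to 73.2 and 108 FPKM, against 838 and 1019 in Sch. Of 6 stress genes 3 were lower in Sch, at 79.4 and 67.9 FPKM in sum, against 289 and 141 in Fb. Their part in the results was not tested, and the comparisons share the DC, Sch and Fb libraries.

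DCSch, the joint fraction, was compared with both of its named parts. No member was called between DCSch and DC, where 6.2% of all rows were called, 4.41% as higher and 1.79% as lower, and 7.89% passed by the adjusted p alone. The largest difference was in Idi1, 1.10 (SE 0.33, limma adjusted p = 0.0675), and a replicate term made it a call (limma adjusted p = 0.00116, with 7.52% of all rows called). The number of members at an unadjusted limma p under 0.05 was 6, a threshold that 16.5% of all rows passed. All 8 cell division markers were called higher in DCSch. Between DCSch and Sch, Elovl6 was the 1 member called, higher in DCSch (log2 difference 1.47, SE 0.36, limma adjusted p = 0.019), where 8.85% of all rows were called, 5.29% as higher and 3.56% as lower. It lost the call without DCSch replicate 2 or either Sch library.

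By the number called, epidermis and fibroblasts differed in more of the fatty acid enzymes than of the sterol enzymes. Of the 29 members 6 were lower in Epi and 1 was higher. Together they made 24.1% of the members, near the 24.5% of all rows that were called, 14% as lower and 10.5% as higher. Among 17 sterol enzymes Cyp51 was the 1 called (log2 difference -1.48, SE 0.27, limma adjusted p = 0.000953), while 5 of 8 fatty acid enzymes were. Sqle passed by its adjusted p alone (log2 difference -0.74, SE 0.18, limma adjusted p = 0.00783). In sum the 17 sterol enzymes were also lower in Epi, at 403 and 460 FPKM, against 589 and 547 in Fb. Acly was higher in Epi at 71.8 and 68.4 FPKM, against 28.7 and 25.03 in Fb (log2 difference 1.35, SE 0.20, limma adjusted p = 0.000177). Lower in Epi were Fads1, at 11.3 and 12.7 FPKM, against 51.3 and 53.5 in Fb (log2 difference -2.04, SE 0.15, limma adjusted p = 1.06e-06), Scd1 (log2 difference -2.83, SE 0.20, limma adjusted p = 7.82e-07), Fads2 (log2 difference -2.67, SE 0.41, limma adjusted p = 0.000261) and Elovl6 (log2 difference -1.68, SE 0.36, limma adjusted p = 0.00321). The sixth was Insig1 (log2 difference -2.06, SE 0.25, limma adjusted p = 5.23e-05). Fads1 in all fractions measured 18.8 and 18.9 FPKM in Pc, 11.3 and 12.7 in Epi, 36.9 and 35.2 in DCSch, 49.8 and 45.4 in DC, 46.1 and 42.3 in Mc, 41.7 and 45.3 in Sch, 29.4 and 31.3 in Neg and 51.3 and 53.5 in Fb. The 4 epithelial libraries were below the other 12. Acly measured 41.5 and 31.1 FPKM in Pc, 71.8 and 68.4 in Epi, 21.8 and 22.3 in DCSch, 30.1 and 22.7 in DC, 42.3 and 47.4 in Mc, 30.7 and 27.7 in Sch, 28.1 and 24.6 in Neg and 28.7 and 25.03 in Fb. The Epi libraries were above all others. All 6 melanocyte markers were higher in Epi, where they summed to 164 and 236 FPKM, against 7.99 and 10.1 in Fb, and their part in the result was not tested. A replicate term called 1 member higher and 6 lower in Epi, and 26.2% of all rows.

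Neg, the cells left over by the sort, was lower than Fb in 5 of 29 members and higher in none, where 15.5% of all rows were called, 7.71% as lower and 7.77% as higher. The 5 were Hmgcs1 (log2 difference -1.10, SE 0.31, limma adjusted p = 0.025), Sqle (log2 difference -1.15, SE 0.18, limma adjusted p = 0.000638), Cyp51 (log2 difference -1.25, SE 0.27, limma adjusted p = 0.00482), Sc5d (log2 difference -1.19, SE 0.34, limma adjusted p = 0.0255) and Scd1 (log2 difference -2.01, SE 0.20, limma adjusted p = 1.95e-05). A replicate term called Fads2 as well, and with libraries rescaled to the same total the count was 9. It was 2 without Neg replicate 1 and 3 without Fb replicate 2. All 4 endothelial, all 4 erythroid, all 3 mast cell and all 3 skeletal muscle markers were higher in Neg, and their part in the result was not tested.

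A row that the file names Mir5114 has the position of Scd2, a second desaturase that makes oleate. The row runs over 13187 bases of chromosome 19, 44293676 to 44306862, while the microRNA gene itself is 61 bases long and lies within Scd2 (44293674 to 44306864 in GENCODE M21). Which transcripts its values count is not stated, so they are given for the row and not for the gene. The row measured 165 and 178 FPKM in Pc, 136 and 137 in Epi, 161 and 183 in DCSch, 229 and 214 in DC, 111 and 123 in Mc, 111 and 120.5 in Sch, 108 and 124 in Neg and 242 and 272 in Fb. In every library it was above each of the 8 fatty acid enzymes counted as members. The log2 difference between DC and Fb was -0.21 (SE 0.15, limma adjusted p = 0.415), without a call, while Scd1 was called lower. Against Fb the row was called lower in Sch (log2 difference -1.15, SE 0.15, limma adjusted p = 0.000162) and in Neg (log2 difference -1.14, SE 0.15, limma adjusted p = 0.000185).

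How alike the members were across the 8 fraction means was described by Pearson's r of each member with the mean of the other sterol enzymes, on the log2 scale. The 8 points share their libraries and the FPKM scale, and no test was made. The highest values among sterol enzymes were 0.954 for Sqle, 0.938 for Nsdhl, 0.935 for Fdps and 0.905 for Idi1, and Srebf2 reached 0.920. Ebp (0.387), Cyp51 (0.378), Tm7sf2 (0.0722) and Hsd17b7 (-0.0108) followed the other sterol enzymes least. In the fatty acid branch Acaca had 0.795, Acly 0.533 and Fasn 0.544. Scd1 had 0.215, Fads1 -0.304 and Elovl6 -0.603.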

How the data were processed

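RNA of sorted cells from mouse skin at embryonic day 14.5 was sequenced in 16 libraries, 2 for each of 8 fractions. The labels' protocols give a lower limit of 8.8 on the RNA integrity number, amplification of 6 ng by a NuGEN system, and 100 ng of cDNA per library. What the authors deposited was 1 table in FPKM, a level scaled to transcript length and library size, with 23235 rows. Per the submitters' processing notes, TopHat2 2.0.3, Bowtie2, Cufflinks 2.1.1 and the build mm10 were used. Annotation, strand setting and read depth are not given here, and low values shared no common step from which whole reads could be read: the commonest step ratio held 2.62 to 4.12% of pairs.

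Values were taken as log2(FPKM + 1), which understates changes of low genes. Rows with at least 1 FPKM in at least 2 libraries (14171) entered limma 3.58.1 in R 4.3.3, with 1 mean per fraction, a trended and robust variance and Benjamini-Hochberg adjustment over all rows. Called means an adjusted p below 0.05 together with a log2 difference of 1 or more in either direction. The unpaired fit was tested on simulated data in which the libraries varied independently. That test does not cover the shared deviations of same-numbered libraries described below. Named by rule were all 30 members, with every library's value for those called in Pc against Epi, DC against Fb or Mc against Sch and for Srebf1, Srebf2 and Insig1. Up to 4 called genes of each further list, those with the largest differences, were also eligible. Values in every library for Cyp51, Fads1 and Acly and the row Mir5114 were added after their values were seen. The members and lists were chosen with earlier results of these data known.

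Same-numbered libraries deviated together: all 28 correlations of deviations between fractions were above 0.1, from 0.148 to 0.656. The numbers may therefore pair the libraries, and a fit with a replicate term was made beside the unpaired one. Standard errors, p-values and calls are from the unpaired fit wherever a replicate term or block is not named. The 2 fits can differ much, as for Cyp51 between DC and Fb, with a standard error of 0.27 unpaired and 0.12 with the replicate term. Replicate libraries of a fraction correlated at 0.939 to 0.979. Gene models were compared with GENCODE M21, and promoters came from RefSeq. Pseudocount, filter, scaling, quantile normalization, the libraries fitted and each library's omission were tried as alternatives.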

Additional observations from a re-analysis of the deposited data

Results flagged for a closer look

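The difference between follicle and surrounding cells differed between the epithelial and the dermal layer for 12 members, by the test of that difference itself. The log2 difference of Pc from Epi minus that of DC from Fb was positive in each. Among genes of the isoprenoid steps it was 1.29 for Acat2 (SE 0.29, limma adjusted p = 0.00998), 1.54 for Hmgcs1 (SE 0.44, limma adjusted p = 0.035), 2.51 for Idi1 (SE 0.46, limma adjusted p = 0.00303) and 1.69 for Fdps (SE 0.45, limma adjusted p = 0.0244). Among genes of squalene and sterol steps it was 1.26 for Fdft1 (SE 0.27, limma adjusted p = 0.00697), 2.01 for Sqle (SE 0.26, limma adjusted p = 0.000301), 1.71 for Nsdhl (SE 0.40, limma adjusted p = 0.0118) and 1.02 for Dhcr7 (SE 0.28, limma adjusted p = 0.0304). For the regulator and the sterol carrier it was 2.64 for Insig1 (SE 0.36, limma adjusted p = 0.00045) and 2.21 for Stard4 (SE 0.40, limma adjusted p = 0.00292). In the desaturase genes it was 2.37 for Scd1 (SE 0.28, limma adjusted p = 0.000194) and 1.90 for Fads2 (SE 0.57, limma adjusted p = 0.0454). Between Pc and Epi none of the 12 was called. Idi1, Fdft1, Sqle, Insig1, Scd1, Acat2 and Stard4 were called under all 15 alternatives, while Fads2 was called under 6, Dhcr7 under 8, Fdps under 9, Hmgcs1 under 10 and Nsdhl under 14. With 2 libraries a fraction, no single library could be screened as an outlier.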

How the results depend on the processing

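No member changed sign under the alternatives in a comparison where it was called. Of 719 such pairs of a called member and a setting, 631 kept direction and call and 88 lost the call. Members that were not called were not followed one by one. Between DC and Fb the call held under all 11 alternatives for Hmgcs1, Idi1, Fdps, Fdft1, Sqle, Nsdhl, Insig1, Scd1 and Stard4. Fitted on only the libraries compared, 9 members were called between DC and Fb (against 16), 2 between Neg and Fb (against 5) and 0 between DCSch and Sch (against 1). Rescaling to the same total gave 3 between Mc and Sch (against 5) and 9 between Neg and Fb. It moved the median of all rows by up to -0.224 (Epi against Fb), and by 0.003 or less for DC against Fb. By the adjusted p alone 1 was called between Pc and Epi (against 0), as were 1.82% of all rows. Between DC and Sch 8 were called by it (against 4), as were 24.9% of all rows. Between DCSch and DC 1 was called with a pseudocount of 0.1 and 1 with the replicate block (against 0). In the F test 25 members passed with the replicate block, against 21 without it, where 55.8% of all rows passed. The share of all rows was not counted for the F test with the block. Nor was it for the rescaled values, the other pseudocount or the fits on only the libraries compared.

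Leaving out 1 library gave 0 to 1 calls for Pc against Epi, 13 to 16 for DC against Fb, 1 to 3 for Mc against Sch, 3 for DC with Sch as its partner, 0 for DCSch against DC, 0 to 1 for DCSch against Sch, 7 to 9 for Epi against Fb, 9 to 11 for Sch against Fb, 2 to 5 for Neg against Fb, 8 to 11 for the difference between layers and 20 to 21 for the F test. The lone library left is then assumed to vary like the other fractions. Read depth is unknown, so no counting interval was given.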

Other observations

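Between Epi and Fb, 4 of 14 tested further fatty acid genes were higher and 2 lower. Elovl4 measured 34.1 and 44.7 FPKM in Epi, against 1.704 and 2.42 in Fb (log2 difference 3.72, SE 0.30, limma adjusted p = 1.84e-06). Acsl1, which activates long-chain fatty acids, measured 51.8 and 52.5 FPKM in Epi, against 4.63 and 4.62 in Fb (log2 difference 3.24, SE 0.28, limma adjusted p = 2.88e-06). Of 8 storage genes 2 were higher in Epi and 1 lower. Dgat2, which makes triglyceride, measured 19.4 and 18.7 FPKM in Epi, against 1.91 and 0.613 in Fb (log2 difference 3.21, SE 0.39, limma adjusted p = 4.85e-05). The fatty acid binding protein gene Fabp5 measured 893 and 1045 FPKM in Epi, against 104 and 116 in Fb (log2 difference 3.12, SE 0.19, limma adjusted p = 3.01e-07). The lipid droplet gene Plin2 was the lower one, at 7.66 and 9.28 FPKM in Epi, against 27.01 and 29.1 in Fb (log2 difference -1.62, SE 0.23, limma adjusted p = 0.000166). Of the 7 tested further sterol genes 4 were lower in Epi, among them Cyp7b1 (log2 difference -2.76, SE 0.39, limma adjusted p = 0.000147) and Cyp27a1 (log2 difference -2.63, SE 0.26, limma adjusted p = 7.88e-06). In Epi against Fb 24.5% of all rows were called.

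Replicate numbers were visible in single members. Mvk, Mvd, Tm7sf2 and Srebf1 were higher in replicate 1 in all 8 fractions, as were 12.6% of all rows tested. Hmgcs1, Idi1, Cyp51, Hsd17b7, Sc5d and Elovl6 were lower in replicate 1 in all 8, as were 19.7% of all rows.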
